A study of Mus musculus with 26 samples.

Results

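The genes described here build and use the neuronal cytoskeleton: alpha- and beta-tubulins, stathmins, neurofilaments and their relatives, kinesins and cytoplasmic dyneins. They were picked by a pattern in the gene symbol, which uses no measured value, although the families were proposed with earlier results of these data known. This gave 77 members among the 55401 genes in the deposited tables. The members are 7 alpha-tubulins, 8 beta-tubulins, 5 stathmins, 5 intermediate filament genes, 38 kinesins and 14 dynein subunits. Each comparison could test 72 of them. *Tuba3a*, *Tuba3b*, *Kif2b* and *Kif12* had too few counts, and *Kif2b* had none in any library.

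The 26 libraries, in 10 groups, hold messenger RNA of mouse dorsal root ganglia (DRG), where the cell bodies of sensory neurons lie, or of neurons grown from them. Conditional knockout (cKO) mice carried floxed alleles of *Ahr*, which encodes the aryl hydrocarbon receptor, and a Thy1-driven, tamoxifen-inducible Cre (labelled Ahr f/f Thy1-CRE(ERT2/EYFP)). Control mice also carried floxed *Ahr* (fl/fl or fl/+) but no Cre, and every group therefore shares at least 1 floxed allele. In the first set, 3 naive and 3 injured mice of each genotype had been given tamoxifen (5 daily doses of 100 mg/kg) when 28 weeks old. Their lumbar DRG (L4 to L6) were collected 5 weeks later, in the injured mice 1 day after sciatic nerve crush. The supplemental set holds cultured, semi-purified DRG neurons 24 h after seeding (3 libraries per genotype, female) and DRG from 2 male mice per genotype 1 day after sham surgery, with the ipsilateral and contralateral side of each mouse sequenced separately. The labels give neither tamoxifen treatment nor age for the supplemental mice. Thy1 drives expression in neurons, so *Ahr* in the glia and other cells of a ganglion is not a target of this Cre.

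Microtubules are hollow filaments of alpha- and beta-tubulin pairs along which kinesins mostly carry cargo towards the axon tip and cytoplasmic dynein carries it back to the cell body. Neurofilaments are intermediate filaments that fill large axons and set their calibre, and stathmins bind tubulin pairs and make microtubules more dynamic. DRG neurons, whose axons can be very long, keep these genes at high levels and are known to alter some of them when their axons are cut.

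Depth ran from 20169388 to 23540375 counts over the 12 libraries of the first set, from 39306414 to 58751270 over the 8 sham libraries and from 25299938 to 88180611 over the 6 neuron libraries. The members took 2.615% to 2.963% of the counts in naive and injured ganglia, 2.962% to 3.238% in sham ganglia and 1.782% to 1.971% in cultured neurons. *Ahr* itself ranged from 18.9 to 23.8 CPM (read counts scaled by the library's effective total) in naive controls and from 22.7 to 28.1 CPM in naive cKO ganglia. It passed the test in no comparison of genotypes. These gene-level counts include the parts of *Ahr* outside the floxed region, so they do not measure the deletion. In 2 libraries the sex-linked transcripts went against the labelled sex: injured control replicate 3 (labelled male) had the transcripts of a female and injured cKO replicate 2 (labelled female) those of a male. All naive libraries came from females and the injured cKO group held 2 libraries with male transcripts, so in that genotype sex and injury are partly confounded. Wrong sex labels and an exchange of these 2 libraries, which would put each in the other genotype, cannot be told apart here. The values by genotype in injured ganglia rest on the labels as given. With both libraries left out, no member passed in edgeR's test between genotypes in injured ganglia or for the difference between the injury effects. In bulk tissue, fewer cells of a type and less RNA per cell cannot be told apart.

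The first question was which members differ in the ganglion 1 day after crush. In control mice 19 of the 72 members passed the test (26.4%, against 21.6% of all 21261 genes tested), 13 higher and 6 lower (12.9% and 8.73% of all genes). In cKO mice 14 passed (19.4%, against 18.6% of all genes), 8 higher and 6 lower (10.7% and 7.89% of all genes). Of these calls 12 were shared and had the same sign, which is 63.2% of the control calls and 85.7% of the cKO calls. The matching shares over all genes are not given here, so this sharing is not read as particular to the members. With the injury effect averaged over both genotypes, 28 members passed (38.9%, against 34.1% of all genes), 17 higher and 11 lower (18.4% and 15.7% of all genes, the shares against which the counts of families and marker lists after crush are to be read). The share of members called was thus close to that of genes in general, and their median log2 fold change was 0.03, against -0.016 for all genes. *Stmn4*, *Tubb6* and *Kif22* had the largest rises. The sets of naive and injured libraries of 12 of the 17 higher and 3 of the 11 lower members did not overlap. Groups without overlap were found for 20.8% of members and for 19.3% of all genes. Within control mice these shares were 36.1% and 38.1%, and within cKO mice 37.5% and 36.1%. With sex read from the transcripts as a covariate, the calls fell to 17 members for the average (24.5% of all genes) and 4 for cKO mice (6.65% of all genes). Leaving out both libraries whose transcripts went against their label gave 23 (27.5% of all genes) and 8 (11.1%). Control mice had 12 calls without injured control replicate 1 (14.6% of all genes) and also without replicate 2 (14.4%), and cKO mice had 9 without injured cKO replicate 2 (12.3%).

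**Figure D1:**
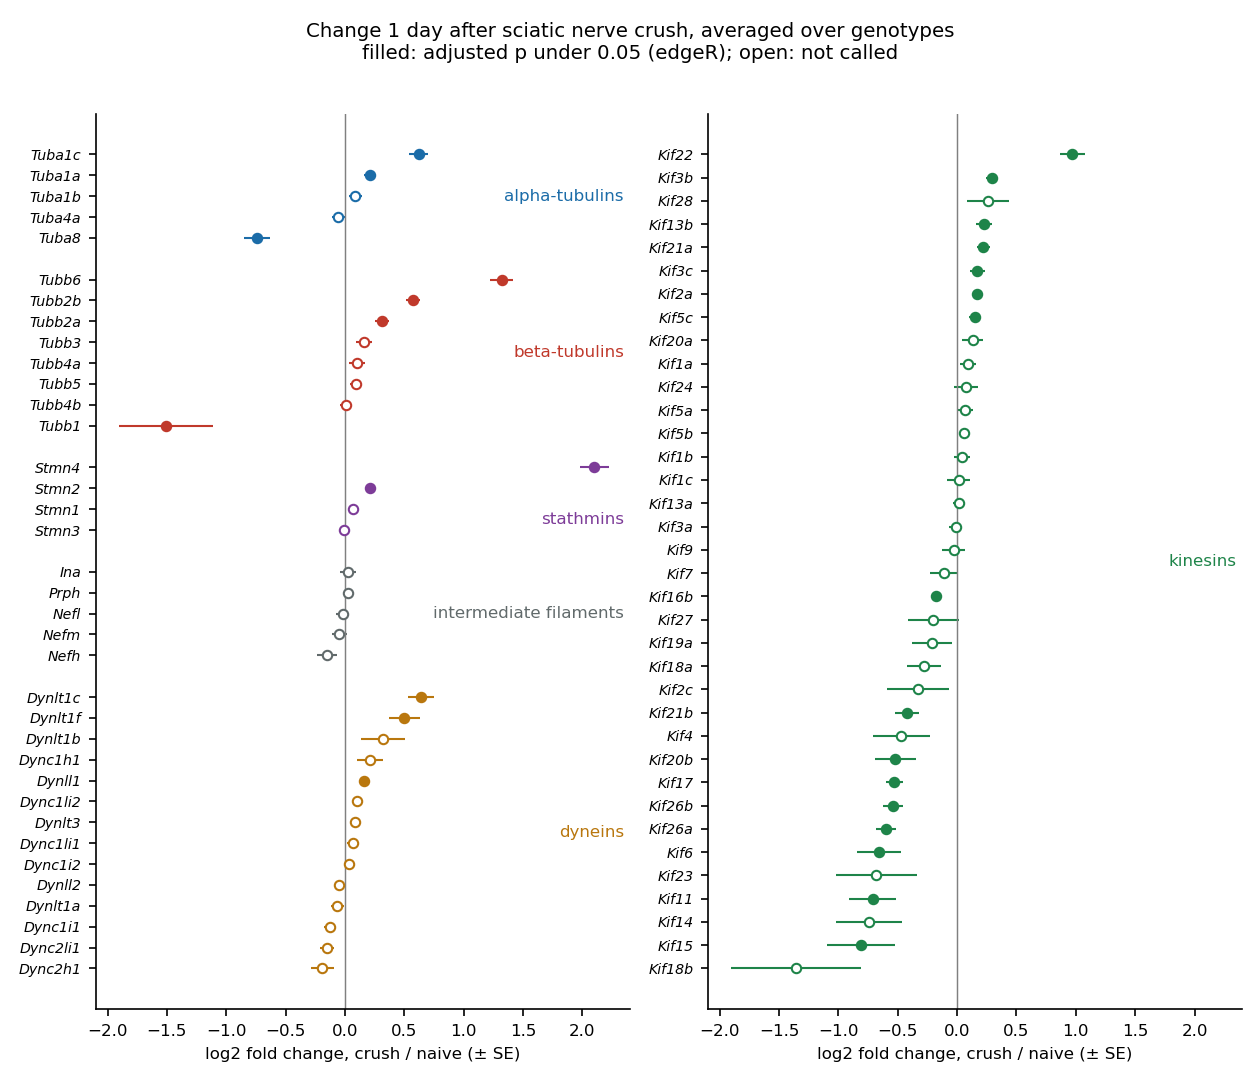
Log2 fold change of each of the 72 tested members 1 day after crush, averaged over genotypes, with its standard error. Rows are members grouped by family and ordered by value. Filled points passed an adjusted p of 0.05 (edgeR) and open points did not. *Stmn4* at 2.10 and *Tubb6* at 1.32 lie farthest to the right, while all 5 intermediate filaments lie between -0.15 and 0.03 with open points.

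*Stmn4*, which encodes a stathmin made mainly by neurons (RB3), showed the largest difference of any member. The gene lies at chr14:66344296-66361680 on the plus strand (GRCm38). Its level was 14.7, 13.8 and 11.7 CPM in the naive control libraries, and naive cKO libraries had 11.5, 13.5 and 13.9 CPM. After crush it was 56.1, 66.7 and 49.2 CPM in control and 42.6, 69.4 and 56.2 CPM in cKO. Every injured library was above every naive library, and the genotypes overlapped in each state. The rise was 4.30-fold (log2 fold change 2.10, SE 0.122, n = 6 against 6, adjusted p = 2.03e-07, edgeR). Within genotypes the log2 fold change was 2.10 (SE 0.172) in control and 2.11 (SE 0.173) in cKO mice. *Stmn2*, the stathmin known as SCG10 and long used as a marker of growing axons, had the most counts of any stathmin in naive ganglia. It ranged from 1225 to 1324 CPM in the 6 naive libraries and from 1391 to 1592 CPM in the 6 injured ones, again without overlap, and rose by 1.16-fold (log2 0.21, SE 0.043, adjusted p = 0.00247, edgeR). *Stmn1*, the broadly expressed founding member, and *Stmn3* (SCLIP) did not pass, with log2 fold changes of 0.07 (SE 0.039) and -0.01 (SE 0.043). With labelled sex as a covariate *Stmn1* gained a call (log2 0.11, adjusted p = 0.0390).

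Among the beta-tubulins, *Tubb6*, *Tubb2b* and *Tubb2a* rose and *Tubb1* fell. *Tubb6*, a broadly expressed isotype that is scarce in mature neurons, was at 35.9, 39.8 and 43.8 CPM in naive control, 37.5, 37.4 and 41.3 CPM in the naive cKO group, 95.3, 106 and 95.8 CPM in injured control and 77.5, 121 and 94.2 CPM in injured cKO ganglia. All 6 injured libraries exceeded all 6 naive ones. The rise was 2.50-fold (log2 1.32, SE 0.095, adjusted p = 1.01e-06, edgeR). *Tubb2b*, an isotype of developing neurons, went from 281 to 335 CPM over the naive libraries to 402 to 506 CPM over the injured ones (log2 0.57, SE 0.059, adjusted p = 1.69e-05). Its neighbour *Tubb2a*, a major neuronal isotype, went from 499.7 to 576 CPM to 583 to 753 CPM (log2 0.31, SE 0.060, adjusted p = 0.00181). Neither gene's injured libraries overlapped its naive ones, although the lowest injured library of *Tubb2a*, cKO replicate 1, was close to the naive range. The neuron-specific *Tubb3*, the isotype recognised by the TUJ1 antibody, did not pass (log2 0.16, SE 0.066, adjusted p = 0.0867), but did without injured cKO replicate 1 (0.19, adjusted p = 0.0277). Without injured cKO replicate 2 *Tubb3* was at its lowest, 0.09. A predicted gene, Gm20388, covers the whole of *Tubb3* and its counts were 373.78% of those of *Tubb3*, so these values are uncertain. *Tubb4a*, *Tubb4b* and *Tubb5* did not pass either (0.10, 0.004 and 0.09).

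*Tubb1*, the beta-tubulin of platelets and their precursor cells, was near the lower limit of these data. It stood at 4.72, 1.35 and 1.12 CPM in naive control, 1.95, 2.15 and 3.27 CPM in the naive cKO group, 0.669, 1.17 and 1.28 CPM in injured control and 1.18, 0.514 and 0.388 CPM in injured cKO ganglia. The naive and injured sets overlapped, and naive control replicate 1 was the highest of the 12 libraries. The log2 fold change was -1.51 (SE 0.395, adjusted p = 0.0111, edgeR), and -1.03 (adjusted p = 0.0146) without that library. With sex read from the transcripts as a covariate it was -1.13 and lost its call (adjusted p = 0.0996). Blood cell markers, a list added after the data were seen, had 5 of 12 members lower and 1 higher, with a median of -0.62 (15.7% of all genes were called lower). Without naive control replicate 1, 2 of 12 were lower and 1 higher, with a median of -0.42. Their summed level was 603 to 1270 CPM in naive control, 483 to 795 in naive cKO, 528 to 828 in injured control and 217 to 409.5 CPM in injured cKO, with none of the 12 at 0. The library with the highest sum was naive control replicate 1. Their part in the result was not tested.

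Among the alpha-tubulins *Tuba1c* and *Tuba1a* rose and *Tuba8* fell. *Tuba1c*, a minor isotype (chr15:99029891-99038110, plus strand), stood at 41.4, 39.4 and 37.3 CPM in naive control, 39.7, 40.2 and 38.2 CPM in the naive cKO group, 59.2, 64.0 and 58.4 CPM in injured control and 48.2, 74.0 and 59.2 CPM in injured cKO. The naive libraries of both genotypes were tightly grouped, and all the injured ones lay above them (1.54-fold, log2 0.62, SE 0.083, adjusted p = 0.000123, edgeR). *Tuba1a*, the main alpha-tubulin of neurons, ranged from 675 to 738 CPM in naive and from 749 to 929 CPM in injured ganglia (log2 0.21, SE 0.053, adjusted p = 0.0104). It loses the call with sex read from the transcripts as a covariate (log2 0.14). *Tuba8*, a divergent isotype at low level, fell by 0.74 on the log2 scale (SE 0.108, adjusted p = 0.000242), from 3.72 to 5.21 CPM over the naive libraries to 2.10 to 3.08 CPM over the injured ones, without overlap. *Tuba1b* and *Tuba4a* did not pass, with 0.09 and -0.06. *Tuba1a*, *Tuba1b* and *Tuba1c* are near-identical in sequence and reads may be divided between them. Of the 3867 bp of *Tuba1a*, 3715 bp also lie within a predicted gene, Gm49450, whose counts were 110.79% of its own.

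**Figure D2:**
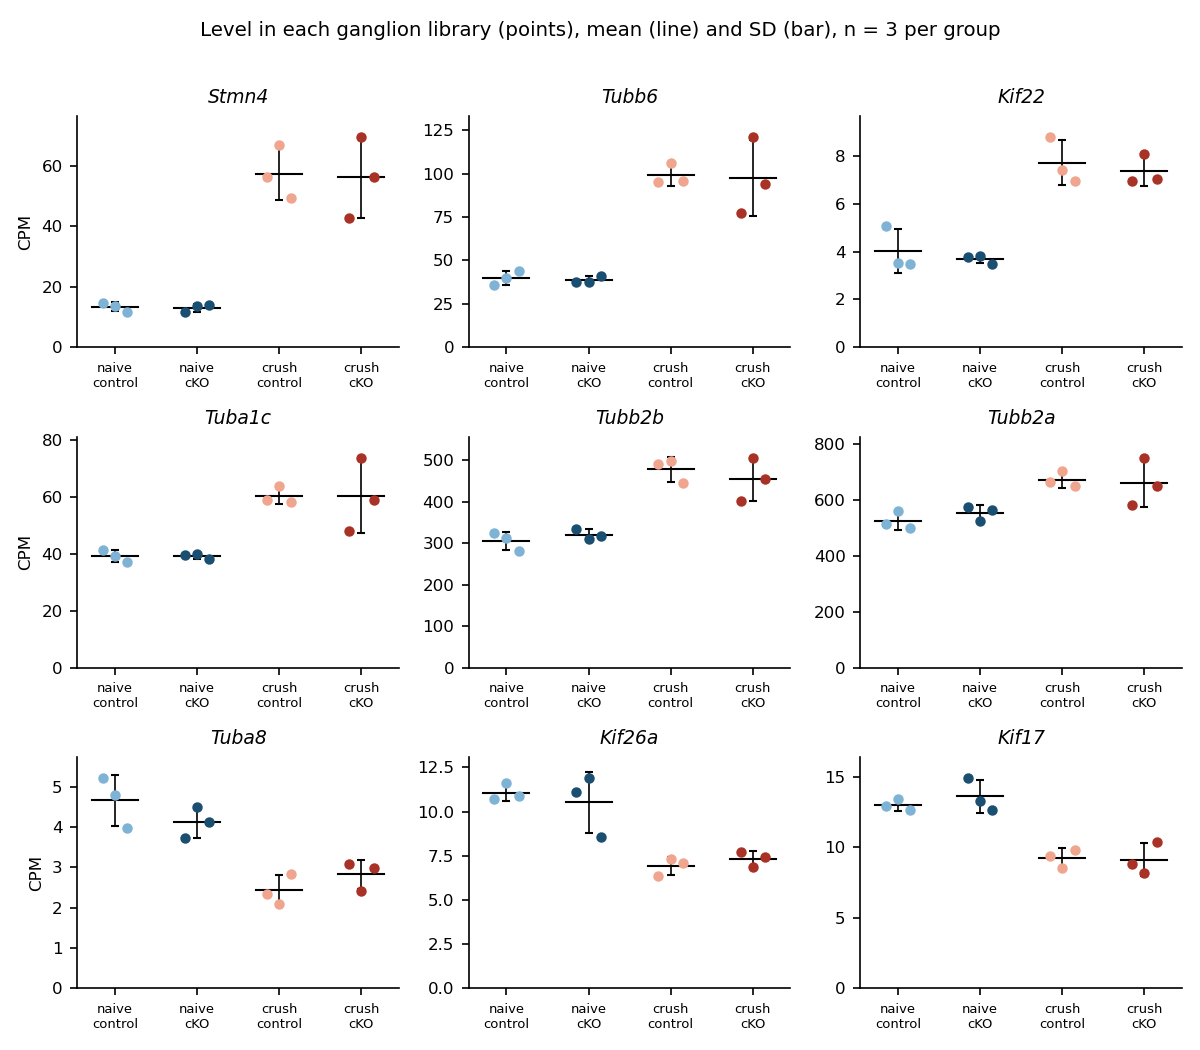
Level in CPM (vertical axes, from 0) of 9 members in each of the 12 naive and injured libraries. Points are libraries, lines are means and bars are SD, with 3 libraries per group. In *Stmn4*, *Tubb6*, *Kif22*, *Tuba1c*, *Tubb2b* and *Tubb2a* all injured points lie above all naive points, in *Tuba8*, *Kif26a* and *Kif17* all lie below, and the genotypes overlap in each state.

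*Kif22*, a chromosome-binding kinesin known from dividing cells, rose by 1.96-fold (log2 0.97, SE 0.105, adjusted p = 2.50e-05, edgeR). Its level was 5.08, 3.52 and 3.47 CPM in naive control, 3.76, 3.80 and 3.50 CPM in the naive cKO group, 8.79, 7.42 and 6.95 CPM in injured control and 6.97, 8.08 and 7.03 CPM in injured cKO. Each injured library was above each naive library. A predicted gene, Gm31749, overlaps *Kif22* and its counts were 14.54% of those of *Kif22*.

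The other kinesins of cell division did not follow *Kif22*. Of the 11 on the list, 3 fell (*Kif11*, *Kif15* and *Kif20b*) and *Kif22* alone rose, with a median log2 fold change of -0.52. *Kif11*, the spindle motor Eg5, was at 8.45, 3.79 and 4.63 CPM in naive control, 4.46, 6.09 and 6.68 CPM in the naive cKO group, 4.30, 3.22 and 3.92 CPM in injured control and 3.80, 3.24 and 2.46 CPM in injured cKO. The sets overlapped, and the highest value was again that of naive control replicate 1 (log2 -0.71, SE 0.197, adjusted p = 0.0150). Of the markers of dividing cells 2 of 7 fell and none rose, with a median of -0.90. Their summed level was 23.7 to 78.2 CPM in naive control and 21.2 to 47.1 in naive cKO, against 18.2 to 33.0 in injured control and 16.7 to 20.2 CPM in injured cKO, with no marker at 0. Without naive control replicate 1, which held the 78.2 CPM, the mitotic kinesins had 1 call in each direction and a median of -0.31, and of the dividing-cell markers 1 of 7 fell, with a median of -0.55. *Kif15* and *Kif20b* were then no longer called (adjusted p = 0.101 and 0.0748), and *Kif22* stood at 1.07 (adjusted p = 4.98e-06). The part of dividing cells in these values was not tested.

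Among the 15 kinesins of axonal transport, 5 rose, by 0.15 to 0.29 on the log2 scale, and 3 fell (*Kif17*, *Kif21b* and *Kif16b*), with a median of 0.06. *Kif3b*, a motor subunit of kinesin-2, rose by 1.22-fold (log2 0.29, SE 0.046, adjusted p = 0.000460, edgeR). It ranged from 159.6 to 183 CPM in naive and from 194 to 225 CPM in injured ganglia, without overlap. *Kif21a*, a motor that also restrains microtubule growth, was 469 to 611 CPM and 598 to 665 CPM, with an overlap of the sets (log2 0.22, SE 0.053, adjusted p = 0.00722). *Kif13b*, *Kif3c* and *Kif5c* rose by 0.23, 0.17 and 0.15. The main kinesin-1 heavy chain of DRG, *Kif5a*, did not pass (log2 0.06, SE 0.068), and neither did *Kif5b*, *Kif1a* or *Kif1b* (0.06, 0.09 and 0.04), which carry mitochondria and synaptic vesicle precursors.

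*Kif17*, a kinesin-2 motor of dendrites and cilia, fell by 0.53 on the log2 scale (SE 0.071, adjusted p = 0.000121, edgeR). It was 12.9, 13.4 and 12.6 CPM in naive control, 14.9, 13.3 and 12.6 in the naive cKO group, 9.41, 8.50 and 9.83 in injured control and 8.78, 8.18 and 10.4 CPM in injured cKO. All injured libraries were below all naive ones, but *Sh2d5* overlaps *Kif17* and its counts were 71.3% of those of *Kif17*, so the value is uncertain. *Kif21b* and *Kif16b* fell by 0.42 and 0.18.

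*Kif26a* and *Kif26b*, atypical kinesins known from cell signalling and adhesion, also fell. *Kif26a* was 8.57 to 11.9 CPM over the naive and 6.35 to 7.69 CPM over the injured libraries, without overlap (log2 -0.60, SE 0.082, adjusted p = 0.000151, edgeR). *Kif26b* was 68.3 to 100.1 CPM against 52.2 to 70.3 CPM, with an overlap that comes from naive control replicate 1, the lowest naive library (log2 -0.54, SE 0.088, adjusted p = 0.000522). *Kif2a*, a microtubule depolymerase, rose by 0.17 and *Kif6* fell by 0.66.

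Of the 14 dynein genes 3 rose and none fell (18.4% of all genes were called higher and 15.7% lower), and none of the 3 encodes a motor, intermediate or light intermediate chain. *Dynll1*, a light chain shared with many other complexes, rose by 1.12-fold, from 172 to 189 CPM over the naive to 191 to 204 CPM over the injured libraries, without overlap (log2 0.16, SE 0.034, adjusted p = 0.00377, edgeR). *Dynlt1c* and *Dynlt1f* rose by 0.64 (SE 0.112) and 0.50 (SE 0.132), at 1.30 to 2.72 CPM and 2.93 to 5.81 CPM over the 12 libraries. They belong to a cluster of near-identical Tctex-1 light chain copies, so the division of reads among them is uncertain, and *Dynlt1f* loses its call with either sex covariate. The heavy chain *Dync1h1* did not pass (log2 0.21, SE 0.110, adjusted p = 0.162), with a spread in injured control of 283 to 452 CPM. *Dync1i1*, *Dync1i2*, *Dync1li1*, *Dync1li2* and the abundant light chain *Dynll2* lay between -0.13 and 0.10 and did not pass.

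No intermediate filament gene passed the test 1 day after crush. *Nefh*, the heavy neurofilament subunit, was at 2079, 2770 and 2336 CPM in naive control, 2402, 2273 and 2687 CPM in the naive cKO group, 1852, 2104 and 2238 CPM in injured control and 2119, 2632 and 2186 CPM in injured cKO. Naive and injured libraries overlapped widely (log2 -0.15, SE 0.083, adjusted p = 0.190, edgeR). *Nefl*, the light subunit on which neurofilaments assemble, was at 1748, 2038 and 1811 CPM in naive controls and 1778, 1828 and 1834 CPM in injured control. In cKO ganglia it was at 1928, 1750 and 1948 CPM before and 1752, 2078 and 1816 CPM after crush. The values of *Nefl* in the 4 groups lie within a common range (log2 -0.02, SE 0.055). *Nefm*, *Prph* (peripherin, of small sensory neurons and regenerating axons) and *Ina* (alpha-internexin) had log2 fold changes of -0.05, 0.02 and 0.03, with SE of 0.063, 0.045 and 0.069. These standard errors are of the size that let *Tuba1a* and *Stmn2* pass at 0.21. A list of 6 markers of large neurofilament-rich neurons had 4 calls lower and 1 higher, with a median of -0.22, and its summed level was 929.9 to 1094 CPM in naive control, 945 to 1148 in naive cKO, 816 to 951 in injured control and 927 to 1100 CPM in injured cKO, with no marker at 0. Their part in these values was not tested.

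*Nefl* and *Nefm* are neighbours on chromosome 14 and their counts are not independent. *Nefl* (chr14:68083863-68089095, plus strand) lies wholly inside the annotated span of *Nefm* (chr14:68082590-68124846, minus strand). The antisense pair *Tsix* and *Xist* shows how such genes were counted: in the 16 libraries with female transcripts the counts of *Tsix* were 100% to 100.3% of those of *Xist*. Taking the *Nefl* counts away left 60.9% to 64.4% of the *Nefm* counts, and the injury log2 fold change of that remainder was -0.07, without a call.

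**Figure D3:**
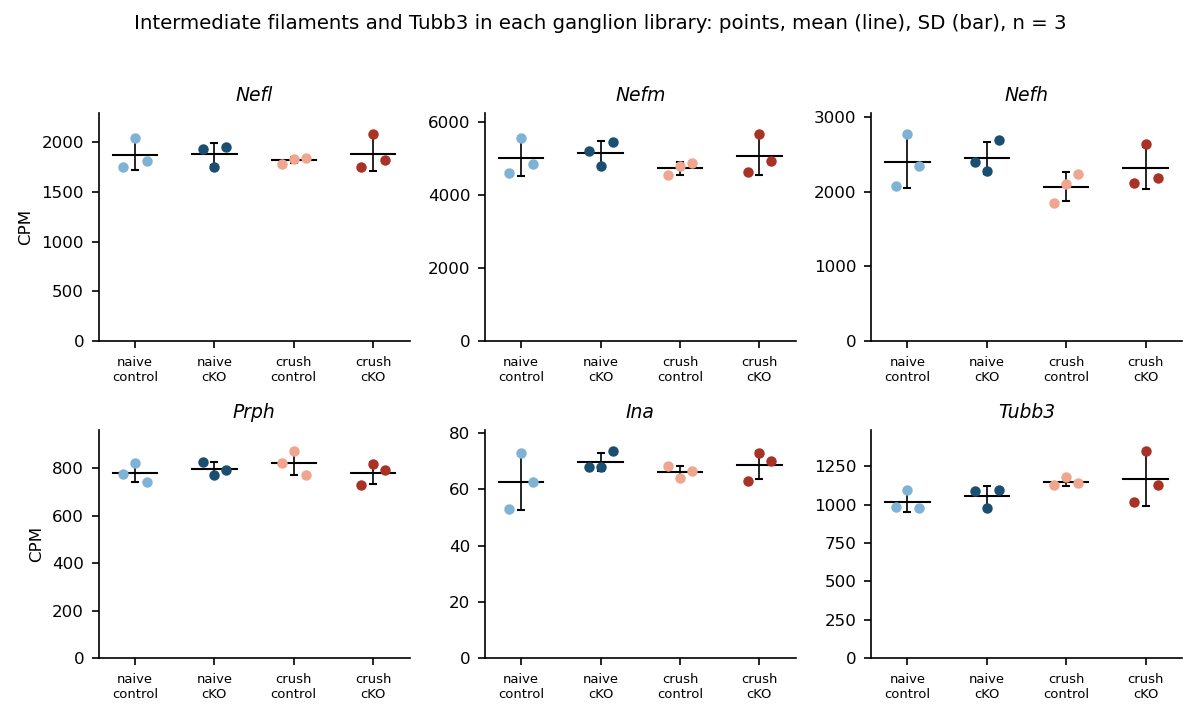
Level in CPM (vertical axes, from 0) of the 5 intermediate filament genes and *Tubb3* in each of the 12 naive and injured libraries. Points are libraries, lines are means and bars are SD, with 3 libraries per group. The naive and injured points of each filament gene overlap, and *Nefh* spans 1852 to 2770 CPM.

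Genes for proteins that work with the members were counted in lists, to be read against the 18.4% of all genes that were called higher and the 15.7% called lower after crush. Of 20 dynactin subunits and dynein regulators 5 rose and none fell. *Ndel1*, which tethers the dynein regulator LIS1, rose most clearly (log2 0.57, SE 0.060, adjusted p = 1.96e-05, edgeR), with means of 158 and 155 CPM before and 234 and 233 CPM after crush (control and cKO). Of 16 kinesin light chains and adaptors 5 rose, among them *Madd* (0.31) and *Arl8a* (0.25), and 1 fell. Of 20 structural microtubule-associated proteins 6 rose and 4 fell. *Map7d1*, which recruits kinesin-1, and *Crmp1*, a collapsin response mediator, rose by 0.67 (SE 0.065) and 0.63 (SE 0.060).

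Enzymes that modify tubulin held the largest values of these lists. Of 26 genes for tubulin folding, modification and severing 7 rose and 2 fell. *Vash2*, which removes the terminal tyrosine of alpha-tubulin, averaged 7.31 CPM in naive controls, 6.92 CPM in naive cKO, 23.7 CPM in injured controls and 21.5 CPM in injured cKO (log2 1.66, SE 0.140, adjusted p = 3.42e-06, edgeR). *Ttll4*, a tubulin glutamylase, went from 9.19 and 8.51 to 16.5 CPM in each genotype (log2 0.90, SE 0.064, adjusted p = 9.66e-07). *Ttl*, which restores the tyrosine and was named after its value was seen, rose by 0.27 (SE 0.054). Of 20 plus-end and nucleation factors 5 rose, among them *Clip1* (0.30), and 4 fell, among them *Tacc2* (-0.42).

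The start-site windows of 3 members that rose are shown because they are the regulatory sequence nearest to a measured change. *Kif22*, *Tuba1c* and *Tubb2a* are 3 of the 12 called higher members with a window in RefSeq (GRCm38.p6), chosen with their values known. Each runs from 250 bases before to 50 bases after the annotated start, 5′ to 3′ on the gene's strand: *Kif22* at chr7:127042371-127042670 (minus), *Tuba1c* at chr15:99029641-99029940 (plus) and *Tubb2a* at chr13:34077959-34078258 (minus). Capitals mark matches on either strand to TGACGTCA (the cyclic AMP response element), TGANTCA (the AP-1 site) and GCGTG (the core of the element bound by the aryl hydrocarbon receptor).
Kif22: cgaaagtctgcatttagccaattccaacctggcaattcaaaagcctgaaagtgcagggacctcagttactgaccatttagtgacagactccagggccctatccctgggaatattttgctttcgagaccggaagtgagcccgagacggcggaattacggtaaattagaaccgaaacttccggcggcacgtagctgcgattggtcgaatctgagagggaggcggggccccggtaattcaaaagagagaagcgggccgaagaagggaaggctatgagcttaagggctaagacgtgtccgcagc
Tuba1c: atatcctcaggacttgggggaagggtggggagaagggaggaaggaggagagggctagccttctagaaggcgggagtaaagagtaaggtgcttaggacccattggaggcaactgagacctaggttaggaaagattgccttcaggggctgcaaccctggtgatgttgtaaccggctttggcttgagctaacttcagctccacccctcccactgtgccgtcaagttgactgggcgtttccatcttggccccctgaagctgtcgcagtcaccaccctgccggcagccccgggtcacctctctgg
Tubb2a: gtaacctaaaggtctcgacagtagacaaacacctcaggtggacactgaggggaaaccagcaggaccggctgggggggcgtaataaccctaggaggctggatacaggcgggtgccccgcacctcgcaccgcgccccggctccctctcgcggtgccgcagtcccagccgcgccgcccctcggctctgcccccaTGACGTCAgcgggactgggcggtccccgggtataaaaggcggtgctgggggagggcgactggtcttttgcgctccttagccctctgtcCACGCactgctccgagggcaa
*Tubb2a* holds 1 match to TGACGTCA, starting 59 bases before the annotated start, and 1 to GCGTG on the opposite strand, while the windows of *Kif22* and *Tuba1c* hold none of the 3 motifs. Windows were found for 56 of the 77 members. TGACGTCA occurs in 4 of these 56 and in 1.79% of all 32851 windows, TGANTCA in 0 of 56 and 7.81%, and GCGTG in 26 of 56 and 32.4%. The counts are of members with a match in any of their windows (61 windows for the 56 members), while the percentages are of single windows. The 2 measures are thus not the same. Among members called after crush, TGACGTCA occurs in 2 of the 12 higher and 1 of the 10 lower ones with a window, and GCGTG in 5 and 6. A match to letters is a description and not evidence of binding.

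The second question was whether these genes, or their response to crush, differ between cKO and control mice. The deletion of *Ahr* was not measured here, and the labels give no tamoxifen treatment for the neuron and sham mice. Results without a call are therefore not evidence on the role of *Ahr*. In edgeR's test no member passed for the difference between the injury effects of the genotypes (the background was 0% of 21261 genes). In that comparison 1 of 72 had an unadjusted p under 0.05 (2.95% of all genes had), and DESeq2 called 0. For *Stmn4* this difference of log2 fold changes was 0.02 (SE 0.240) and for *Tubb6* 0.02 (SE 0.188). Differences of the size of these errors, and also some that are several times larger, could have gone uncalled. The member with an unadjusted p under 0.05 was *Dynlt1a* (-0.34, SE 0.109, adjusted p = 1.000), a Tctex-1 copy that also overlaps *Tmem181a*, whose counts were 365.4% of its own.

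Between genotypes, in edgeR's test 0 members passed in naive ganglia, in injured ganglia and in neurons. The background was 0.00941% of all genes in naive ganglia (0.00470% higher and 0.00470% lower), the same 0.00941% in injured ganglia (0.00470% in each direction) and 0% in neurons. Members with an unadjusted p under 0.05 numbered 2, 0 and 2 (against 1232 and 579 of 21261 genes and 1863 of 23295 genes), and DESeq2 called none in any of the 3. Groups without overlap were found for 4.17% of members in naive ganglia (11.5% of all genes), 4.17% in injured ganglia (8.72%) and 5.56% in neurons (15.2%). In naive ganglia *Dynlt1a* was at 8.85, 9.39 and 8.43 CPM in control and 11.2, 10.2 and 10.6 CPM in cKO, without overlap (log2 0.26, SE 0.077, adjusted p = 0.754). In cultured neurons the smallest p was that of *Kif15* (log2 -0.84, SE 0.199, adjusted p = 0.411), at 2.51, 1.78 and 2.01 CPM in control and 1.32, 1.14 and 0.985 CPM in cKO. *Nefl* in neurons was at 607, 532 and 791 CPM in control and 762, 795 and 803 CPM in cKO, with an overlap (log2 0.29, SE 0.136, adjusted p = 0.634).

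In sham ganglia, edgeR's test again called 0 members between genotypes, on the ipsilateral (background 0.00451%) and on the contralateral side (0%), where 8 and 6 members had an unadjusted p under 0.05 (7.59% and 5.23% of all genes). DESeq2 called none on either side. Groups without overlap were found for 37.5% of members ipsilaterally (33.3% of all genes) and 51.4% contralaterally (39.0%). *Kif6*, a little-studied kinesin at a low level here, had the smallest p, at 1.08 and 0.624 CPM in control and 2.53 and 2.17 CPM in cKO ipsilateral ganglia (log2 1.45, SE 0.279, adjusted p = 0.498). Without a filter on low counts *Kif6* was called (1.43, adjusted p = 0.00297), as was the depolymerase *Kif2c* (1.12, adjusted p = 0.0488), when 1.79% of all genes were called. In the same libraries the dividing-cell markers summed to 34.4 to 45.0 CPM in cKO and 20.0 to 24.8 CPM in control, with no marker at 0 and 0 of 7 called. The 11 mitotic kinesins, *Kif2c* among them, summed to 33.5 to 36.9 CPM in cKO and 27.3 to 28.9 CPM in control. The part of dividing cells in these values was not tested. All sham groups hold 2 mice.

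The sham mice also show how far the side of the operation, without a crush, goes with these genes. Effects of surgery that reach both sides are not measured by this comparison. The injured mice were set against naive mice, so their values may contain such effects. Ipsilateral against contralateral, averaged over genotypes, edgeR's test called 0 members (background 0.00451% of 22160 genes), 10 had an unadjusted p under 0.05 (13.9%, against 7.56% of all genes), and DESeq2 called 2 (0.903% of all genes). *Stmn4* was at 22.0 and 20.0 CPM contralateral and 32.0 and 40.8 CPM ipsilateral in cKO, and at 19.0 and 19.2 CPM contralateral and 32.5 and 31.5 CPM ipsilateral in control mice. All 4 ipsilateral libraries were above all 4 contralateral ones (log2 0.77, SE 0.084, adjusted p = 0.108, edgeR). DESeq2 called it (log2 0.76, adjusted p = 1.36e-11), as did edgeR without sham cKO replicate 1 (0.88, adjusted p = 0.0310). Over its alternatives the adjusted p ran from 1.36e-11 to 0.938. *Tubb6* and *Kif22* were also without overlap, at 28.4 to 32.5 against 36.6 to 45.0 CPM for *Tubb6* (log2 0.41, SE 0.089, adjusted p = 0.317) and 4.41 to 5.49 against 6.24 to 8.67 CPM for *Kif22* (log2 0.53, SE 0.126, adjusted p = 0.380). DESeq2 called *Tubb6* (0.40, adjusted p = 0.00589), and edgeR without a filter on low counts called both (*Tubb6* 0.40, adjusted p = 0.00434, and *Kif22* 0.52, adjusted p = 0.0377). *Kif17* was lower on the operated side in all 4 mice (log2 -0.33, SE 0.097, adjusted p = 0.489). These 4 were the only members whose sides did not overlap (5.56% of members, 4.25% of all genes). The sides of each mouse share the animal, and with the mouse as a block 0 members passed as well.

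The third comparison set the 6 cultured neuron libraries against the 4 sham contralateral ganglia, within the supplemental table. Here 61 of 72 members passed (84.7%, against 76.2% of all 23958 genes tested), 18 higher and 43 lower in neurons (37.0% and 39.2% of all genes). Sex, surgery, cell purity and culture differ between these groups together and cannot be told apart. Levels below are scaled within each set of libraries, and fold changes come from a joint fit.

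*Stmn4*, *Tubb6*, *Kif22*, *Tuba1c* and *Kif2a* rose after crush and were also higher in culture. *Stmn4* was 101 to 119.5 CPM in neurons (median 107) and 19.0 to 22.0 CPM in the ganglia (log2 2.33, SE 0.062, adjusted p = 6.13e-10, edgeR). *Tubb6* was 139 to 189 CPM (median 165) and 28.4 to 32.5 CPM (log2 2.29, SE 0.085, adjusted p = 3.59e-09). *Kif22* and *Tuba1c* were 2.82-fold and 2.33-fold higher, again with no overlap. Of the 17 members that rose after crush, however, 5 were higher, 8 lower and 4 not called in culture. *Tubb2a*, *Tubb2b*, *Stmn2* and *Tuba1a* are among those that rose after crush and were lower in cultured neurons (-0.77, -0.56, -0.89 and -0.90). For *Tubb2b* this direction rests on the reference: it was 443 to 509 CPM in these ganglia and 318 to 408 CPM in neurons. In the naive ganglia of the first set, scaled separately, it was 281 to 335 CPM. *Kif21a*, also among the 8, was 892 to 959 CPM in these ganglia, 749 to 875 CPM in neurons and 469 to 611 CPM in naive ganglia. *Tubb2a*, *Stmn2* and *Tuba1a* were lower in neurons than in the naive ganglia too. Of the 11 that fell after crush 2 were higher and 6 lower in culture. *Dync1h1*, the dynein heavy chain, was higher in culture, at 968 to 1387 CPM against 559.8 to 719.9 CPM (log2 0.88, SE 0.102).

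**Figure D4:**
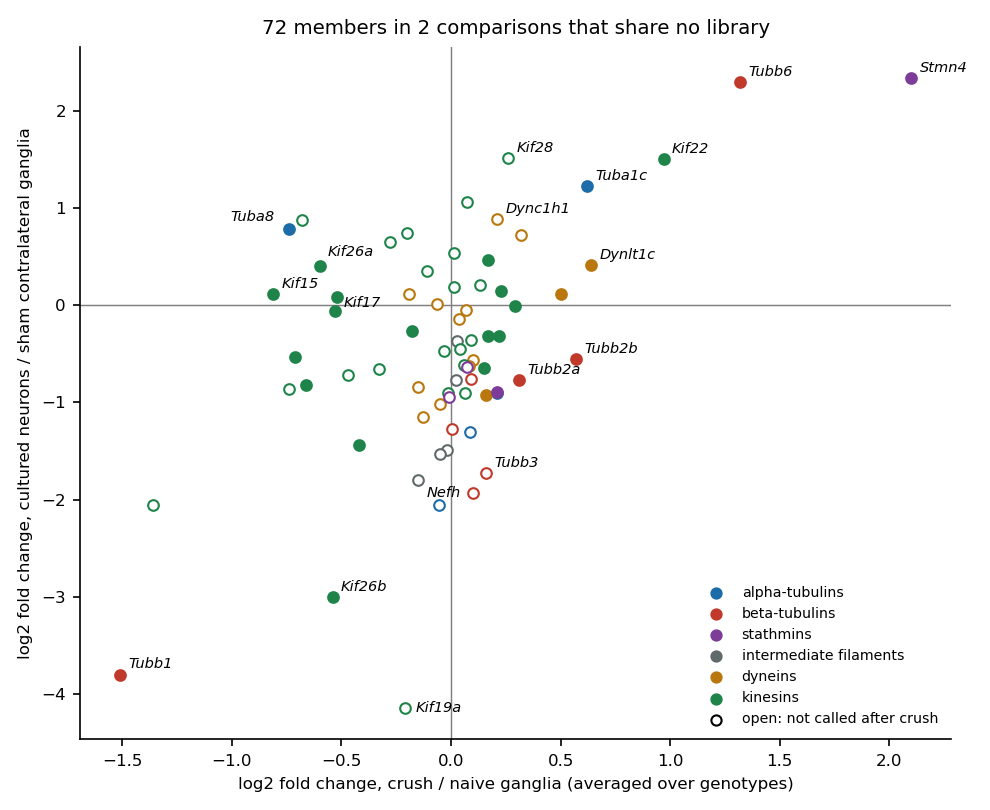
Log2 fold change of each of the 72 tested members after crush (horizontal, averaged over genotypes) and in cultured neurons against sham contralateral ganglia (vertical). Colours are families and filled points were called after crush. *Stmn4*, *Tubb6*, *Kif22* and *Tuba1c* lie at the upper right, while the neurofilaments lie near 0 horizontally and between -1.80 and -1.49 vertically.

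All 5 intermediate filament genes were lower in cultured neurons than in sham contralateral ganglia. *Nefh* was 457 to 931 CPM in neurons (median 844) against 2173 to 2734 CPM in ganglia (log2 -1.80, SE 0.171, adjusted p = 3.37e-06, edgeR), and *Nefm* and *Nefl* were lower by 1.53 and 1.49 on the log2 scale. *Prph* and *Ina* differed less, at -0.77 (SE 0.098) and -0.37 (SE 0.076). For *Prph* the direction rests on this reference: it was 1641 to 1833 CPM in these ganglia and 967 to 1444 CPM in neurons, but 742 to 827 CPM in the naive ganglia of the other table, which was scaled separately. *Tubb3* had a median of 367 CPM against 1118 CPM, without overlap (log2 -1.73, SE 0.049) and *Tuba4a*, an isotype of mature axons, was lower by 2.06 on the log2 scale. *Kif26b* and *Kif19a*, the latter a kinesin of motile cilia, were lower by 3.00 and 4.14. All 8 general neuron markers were lower too, with a median of -1.13 and a summed level of 2438 to 2957 CPM in neurons against 4207 to 4677 CPM. The Schwann cell markers had a median of -4.71, with a summed level of 708 to 885 CPM in neurons against 3270 to 5097 CPM in ganglia, and the endothelial and mural markers a median of 2.37. The part of this shift in cell make-up in the members' values was not tested.

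The make-up of each family, as shares of its summed level per kb of exon, sets these changes in proportion. In naive control ganglia the most abundant members per exon length were *Tuba1a* (385 CPM per kb), *Tubb3* (546), *Stmn3* (346), *Nefm* (868, *Nefl* reads included), *Kif5a* (133) and *Dynll2* (319). Scaled by the gene's span including introns, as in the deposited FPKM, *Tubb3* and *Nefm* each rank 4 in their family. *Stmn4* went from 1.08% ± 0.0987 of the stathmins in naive control to 4.23% ± 0.510 after crush and was 8.73% ± 0.904 in control neurons (SD, n = 3 each), against 1.04% ± 0.0201 in sham contralateral control ganglia (n = 2), the ganglia of the same table as the neurons. *Tubb6* went from 0.823% ± 0.104 of the beta-tubulins to 1.74% ± 0.0692 and was 5.45% ± 0.367 in neurons (0.539% ± 0.0497 in those sham ganglia). *Tuba1c* took 2.36% ± 0.158, 3.26% ± 0.175 and 13.3% ± 1.45 of the alpha-tubulins (2.95% ± 0.0165 in the sham ganglia). The members with the largest fold changes thus stayed small parts of their families in the ganglion. With *Nefl* reads taken out of *Nefm*, *Prph* held 18.6% ± 1.27 of the intermediate filaments in naive control, 20.7% ± 1.49 after crush, 33.4% in sham contralateral ganglia (32.4% and 34.5%) and 51.6% ± 9.42 in neurons. The naive and the sham contralateral ganglia thus already differed in this share.

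**Figure D5:**
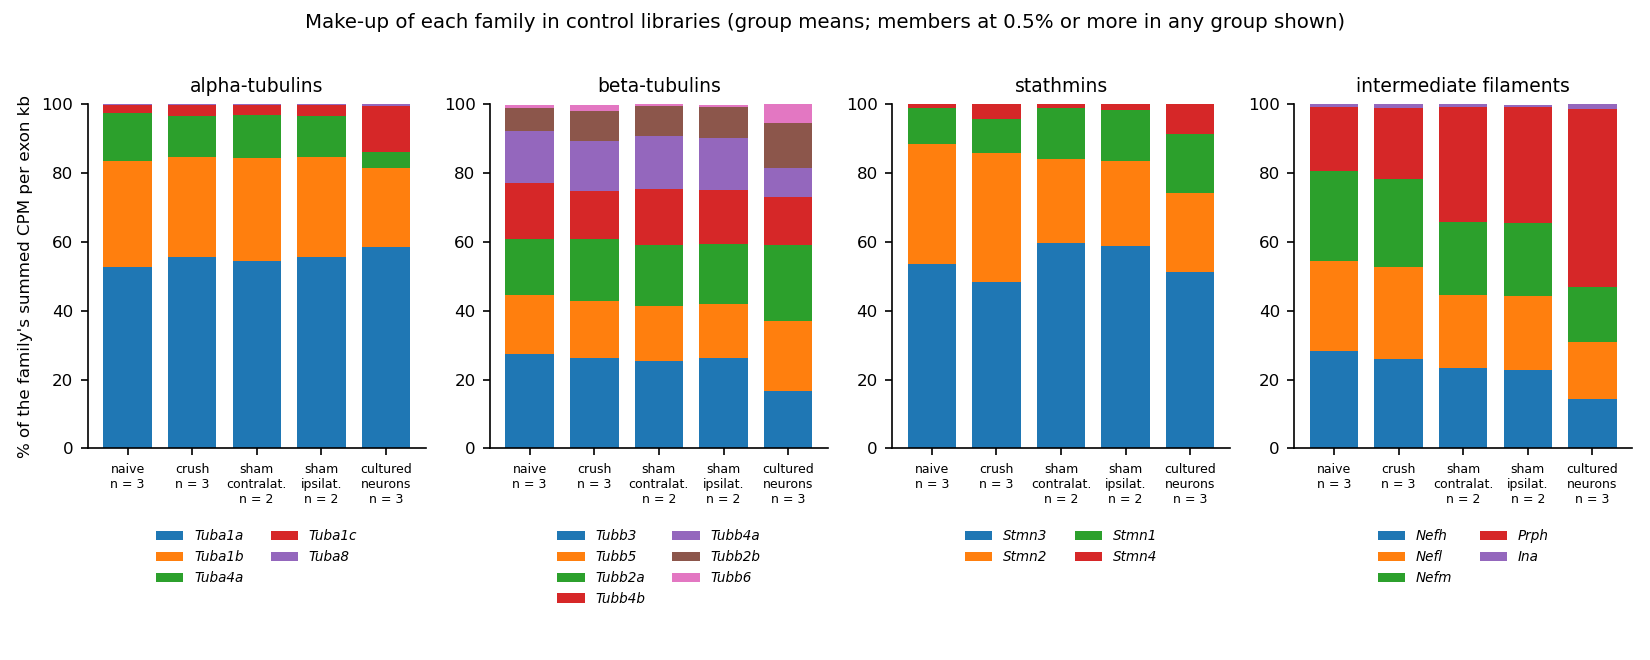
Make-up of 4 families in the control libraries, as the mean share (%) of the family's summed CPM per kb of exon, for naive, crush, sham contralateral, sham ipsilateral and cultured neuron groups of 2 or 3 libraries. Members at 0.5% or more in any group are drawn. *Prph* takes 18.6% in naive ganglia, 33.4% in sham contralateral ganglia and 51.6% in cultured neurons, and *Stmn4* 1.08%, 1.04% and 8.73%.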

How the data were processed

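Whole-number counts per gene and FPKM for 26 libraries (TruSeq Stranded mRNA) were deposited by the authors. The submitters' processing notes name Trim Galore, HISAT2, featureCounts and mm10, without versions. Strand setting and treatment of multi-mapped reads are not given in the sources used here. The deposited FPKM implied, for 100.0% of 39651 genes, the gene's span including introns within 0.1%, so the counts are genic and genes that overlap can share reads. Of 55401 gene identifiers 55141 (99.53%) matched GENCODE M21 (GRCm38), with version suffixes ignored. No value column lay outside the labelled samples.

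Members were chosen by symbol, and members, lists and tests were set with earlier results of these data known. Counts were tested two-sided with the quasi-likelihood F test of edgeR 4.0.16 in R 4.3.3, with filterByExpr (minimum count 10, total 15, by group), TMM factors and 1 mean per group. The naive and injured, the neuron, the sham, and the neuron with sham contralateral libraries were fitted as 4 sets, and the fit was tested on simulated data. Adjusted p-values are Benjamini-Hochberg over all genes of a fit, called under 0.05. SE is the log2 fold change over the square root of F. CPM use TMM-adjusted totals, and errors are SD. Nothing in the labels says that mice of a group are from separate litters, and p-values measure the spread between these samples.

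Named members are those with the smallest p per family and direction after crush (up to 3, mean of at least 1 CPM), all intermediate filaments and stathmins, the most abundant of each family, the smallest p of the other comparisons and the 2 smallest of each list. Others were named after their values were seen. Same-numbered mice did not deviate together in the ganglia (r from -0.418 to 0.412) or throughout the neurons (0.064 to 0.221). Sham sides pair by mouse, per the labels. Alternatives were DESeq2 1.42.0, RLE factors, no filter, a filter of 10 counts in each library of the fit, a threshold of 0.1, only the compared groups, sex covariates, blocks, FPKM per span and leaving out each library. *Nefm* counts without *Nefl* and leaving out both libraries of discordant sex were added after seeing the data. Of the members, 1 is not reported here.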

Additional observations from a re-analysis of the deposited data

Results flagged for a closer look

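Of 330 pairs of genotype effects compared for the named members, 7 had every cKO library on opposite sides of the controls in the paired settings. None of these differences was tested, and with 2 or 3 mice a group they are given as values only. The matching share of pairs over all genes is not given here, so the count is not read as a result about the members. Between genotypes, groups without overlap were found for 33.3% of all genes in sham ipsilateral and 39.0% in sham contralateral ganglia. In naive ganglia and neurons these shares were 11.5% and 15.2%. The differences below are of log2 fold changes of cKO against control.

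*Dynlt1a*, a Tctex-1 light chain copy, stood at 0.26 in naive ganglia and -0.28 in cultured neurons, a difference of 0.54. Against 0.15 in sham ipsilateral ganglia, the value in neurons differed by -0.44. *Kif6* was at 0.83 in neurons and -0.23 in sham contralateral ganglia, a difference of 1.06, and at 1.45 in sham ipsilateral ganglia, a difference of 1.68 between the sides.

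*Nefl*, *Nefm* and *Tubb3* were lower in cKO on the sham ipsilateral side and higher on the contralateral side. *Nefl* was at -0.18 and 0.12 (difference -0.30), *Nefm* at -0.20 and 0.14 (-0.34) and *Tubb3* at -0.03 and 0.06 (-0.09). *Nefl* and *Nefm* share reads, so they are not independent of each other. The 8 general neuron markers summed to 4177 to 4212 CPM in cKO and 4254 to 4464 CPM in control on the ipsilateral side. On the contralateral side they summed to 4521 to 4677 CPM in cKO and 4207 to 4434 CPM in control. The part of neuron content in these values was not tested.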

How the results depend on the processing

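The rise of *Stmn4*, *Tubb6*, *Kif22*, *Tuba1c* and *Tubb2b* after crush, averaged over genotypes, kept its sign and its call under each alternative run. With the sex given by Xist and Y-linked counts as a covariate, members called fell to 4 in cKO mice (6.65% of all genes) and 17 for the average (24.5%), and with both libraries of discordant sex left out to 8 in cKO mice (11.1%). Leaving out 1 library at a time gave 12 to 17 calls in control mice (12 without injured control replicate 1 or 2) and 9 to 14 in cKO mice (9 without injured cKO replicate 2), and 23 to 31 for the average. The share of all genes called is not given for each of these fits, so the ranges describe the counts alone. For the sham sides the calls were 3 without a filter (1.09% of all genes) and 2 with DESeq2 (0.903%), and 0 to 1 with a mouse left out (1 without sham cKO replicate 1, with 0.178% of all genes). Without a filter 2 members, *Kif6* and *Kif2c*, passed between genotypes in sham ipsilateral ganglia (1.79% of all genes). The causes of these shifts were not tested.

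Among the 34 named members, on which the alternatives were run one by one, signs turned for *Ina*, *Prph*, *Nefl* and *Stmn3*, which lie near 0. With the sex given by transcripts *Ina* was at -0.03 and *Prph* at -0.02, with labelled sex *Stmn3* at 0.02, and without both discordant libraries *Ina* at -0.001. Leaving out 1 library at a time, *Ina* ran from -0.03 (without naive control replicate 1) to 0.08 and *Nefl* from -0.06 to 0.008 (without naive control replicate 2). *Prph* ran from -0.006 (without injured control replicate 2) to 0.05 and *Stmn3* from -0.05 to 0.001.

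With replicate number as a block, which the labels do not define as a pairing, 16, 12 and 27 members passed after crush (control, cKO, average), when 20.6%, 17.4% and 32.9% of all genes did, and 0 in neurons. With the mouse as replicate block 0 passed between sham sides.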
